A study of Mus musculus with 24 samples.

Results

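Fibroblast growth factor (FGF) signalling was followed through 10 genes: the ligands *Fgf4* and *Fgf8*, the receptors *Fgfr1*, *Fgfr2* and *Fgfr3*, and the genes *Spry2*, *Spry4*, *Dusp6*, *Etv4* and *Etv5*, which respond to the pathway. They were chosen by name, as the rows of the deposited RNA-seq table that carry these symbols, and are 10 of its 25965 rows. All 10 passed the filter on low values that the tests used. The libraries came from male C57/Bl6 mouse embryonic stem cells (mESCs), expanded in 2i, a medium with inhibitors of MEK and GSK3, and then weaned into DME HiHi, a serum medium without these inhibitors. Every culture received a retroviral short hairpin RNA (shRNA) on day 2 of this differentiation and puromycin from day 3, the controls included, so that no group was untransduced. RNA was taken on days 4, 5, 6 and 7. Of the 2 Nons libraries (the nonsilencing hairpin) that the labels list for each day, 1 was used and the other was not analysed here. *Smarcc1* was targeted by the hairpins Smarcc1.6 and Smarcc1.7, and *Smarca4* by Smarca4.4 and Smarca4.6, which gave 8 libraries per knockdown. The differentiation was not directed to a lineage, and the cells of each culture were harvested together. Nothing in the labels says that the 5 culture series came from separate derivations, so *p*-values measure the spread between these hairpins and libraries.

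FGF ligands bind receptor tyrosine kinases, which signal through the adaptor FRS2, RAS, RAF and MEK to the kinase ERK. Active ERK switches on its own brakes, the Sprouty proteins that dampen the signal between receptor and RAF and the phosphatase DUSP6 that inactivates ERK, together with the ETS transcription factors ETV4 and ETV5. In mESCs FGF4 made by the cells themselves is the main stimulus that moves them out of the naive state, and 2i holds them there partly by blocking MEK. SMARCC1 and SMARCA4 are subunits of the BAF chromatin remodelling complex, SMARCA4 being its ATPase.

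The sequences below show what was targeted and where transcription of 3 of the genes begins. Each line gives the 22 transcript bases, written 5′ to 3′, that pair with a hairpin's guide strand, and the capitals mark the 7 bases that face the guide's seed (its bases 2 to 8).
Smarcc1.6: gcaggatgaagaagCAGTTACa
Smarcc1.7: tcagaaggaagaagATGAGCAa
Smarca4.4: actggagtcagacaGTAATAAa
Smarca4.6: actgatgaacactaTTATGCAa
All 22 bases of each site paired with the guide, and no transcript of the 10 genes held any of these sites over its first 21 bases. On mm10, the site of Smarcc1.6 lies at chr9:110177472-110177493 in exon 13 of the transcript Smarcc1-207 and that of Smarcc1.7 at chr9:110173911-110173932 in exon 11, both in coding sequence. The site of Smarca4.6 lies at chr9:21670504-21670525 in exon 22 of Smarca4-202, in coding sequence, and that of Smarca4.4 at chr9:21703327-21703348 in exon 34, in the 3′ UTR. All 4 are on the plus strand.

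RefSeq promoter entries (GRCm38.p6) were searched for 6 of the 10 genes, *Fgf4*, *Fgfr2*, *Fgfr3*, *Spry2*, *Dusp6* and *Etv5*. *Etv4*, *Fgf8* and *Fgfr1* had no entry, and *Spry4* was left out of the search. The 250 bases before the start of *Fgf4*, *Spry2* and *Dusp6* are shown because *Fgf4* and *Spry2* fell over the days and *Dusp6* did not. Capitals mark AGGAAG on either strand, the motif first described for the ETV4 family.
Fgf4: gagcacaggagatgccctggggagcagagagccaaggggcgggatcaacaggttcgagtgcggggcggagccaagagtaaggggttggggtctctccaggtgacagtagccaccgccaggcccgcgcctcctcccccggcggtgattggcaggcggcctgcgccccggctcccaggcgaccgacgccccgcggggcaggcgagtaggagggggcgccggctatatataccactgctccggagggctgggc
Spry2: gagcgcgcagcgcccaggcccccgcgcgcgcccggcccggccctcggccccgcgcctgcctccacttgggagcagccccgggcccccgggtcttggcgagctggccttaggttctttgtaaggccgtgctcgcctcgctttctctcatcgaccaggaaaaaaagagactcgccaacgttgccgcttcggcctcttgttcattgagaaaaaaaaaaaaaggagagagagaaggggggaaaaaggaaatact
Dusp6: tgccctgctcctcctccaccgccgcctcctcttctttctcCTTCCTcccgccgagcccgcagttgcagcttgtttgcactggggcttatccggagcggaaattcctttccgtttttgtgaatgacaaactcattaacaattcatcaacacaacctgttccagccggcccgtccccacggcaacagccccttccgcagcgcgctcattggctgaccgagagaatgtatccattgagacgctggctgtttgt
They lie at chr7:144861136-144861385 (plus strand), chr14:105896820-105897069 (minus strand) and chr10:99262981-99263230 (plus strand). Of the 3 windows only that of *Dusp6* held AGGAAG, once and on the opposite strand. Of the other genes searched, *Fgfr2* also held it once, while *Fgfr3*, which rose, and *Etv5*, which fell, did not hold it. A link between the motif and the courses over the days was not tested. Neither CCGGAAG nor the AP-1 motif TGANTCA was found in the windows of the 6 genes searched. Over all 32851 promoter entries, windows of 250 bases held AGGAAG in 29.5%, CCGGAAG in 6.91% and TGANTCA in 6.75%, on either strand.

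On mm10, as the table gives the genes' outer limits, *Fgf4* lies at chr7:144861386-144865243 (plus strand), *Fgf8* at chr19:45736798-45742915 (minus), *Fgfr1* at chr8:25513654-25575714 (plus), *Fgfr2* at chr7:130162451-133123350 (minus), *Fgfr3* at chr5:33721724-33737068 (plus), *Spry2* at chr14:105891949-105896819 (minus), *Spry4* at chr18:38586268-38601268 (minus), *Dusp6* at chr10:99263231-99267488 (plus), *Etv4* at chr11:101769742-101785371 (minus) and *Etv5* at chr16:22381309-22439719 (minus). GENCODE M21 gives the same limits for *Fgfr2*, the widest of the 10.

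Libraries held 6829596 to 27472885 reads, with a median of 20414352.5. The smallest, Smarca4.4 on day 5, was well below the next (15717152 reads). A count of 3 reads was worth 0.109 to 0.439 rpm (reads per 1000000 reads of the library). *Smarcc1* was below the same-day Nons level in 8 of 8 libraries of its knockdown, at 23.7 to 60.1% of it, and *Smarca4* in 8 of 8 of its own, at 21.6 to 55.3%. Among mESC markers, *Pou5f1*, the core pluripotency factor also called Oct4, stood at 1171 to 1607 rpm on day 4 and 130.7 to 384.1 rpm on day 7. In bulk RNA, fewer cells of a kind and less RNA per cell cannot be told apart.

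**Figure D1:**
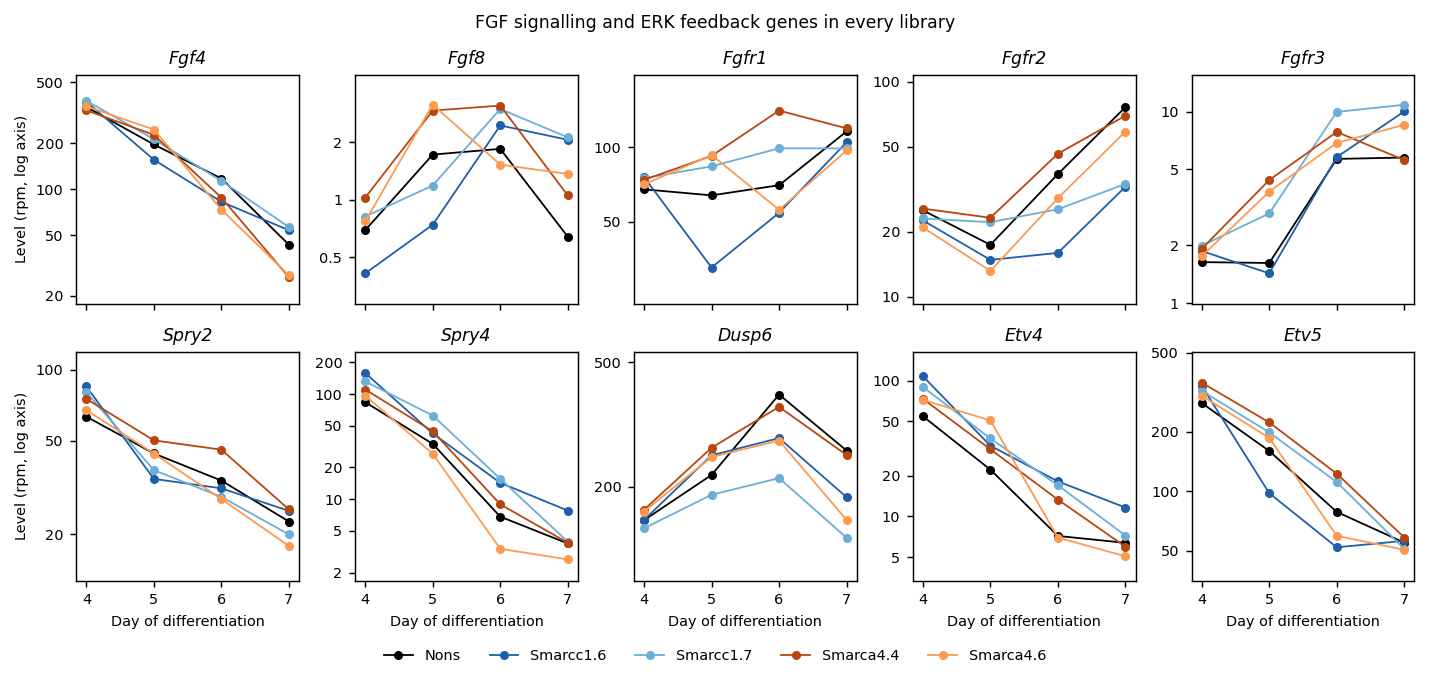
Level of each of the 10 genes (rpm, log axis) against the day of differentiation, with 1 line per culture series and 1 library per point. *Fgf4*, *Spry2*, *Spry4* and *Etv4* were lower at each later day in all 5 series, *Fgfr2* and *Fgfr3* ended higher than they began, and *Dusp6* peaked on day 6.

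The first comparison asked how the pathway's genes moved over the days of differentiation. Later days were also longer after transduction, under puromycin and after weaning from the MEK inhibitor, and these cannot be told apart. Between day 4 and day 7, averaged over Nons and both knockdowns, *Fgf4*, *Spry2*, *Spry4*, *Etv4* and *Etv5* fell, while *Fgf8*, *Fgfr2* and *Fgfr3* rose. The counts were 5 of 10 lower and 3 of 10 higher, where 28.8% of all 13296 genes tested were lower and 35.7% higher. The median change of the 10 was −0.67 on the log2 scale, against 0.083 over all genes. *Spry4* fell the furthest, 26.5-fold (log2 change −4.73 ± 0.29 SE, adjusted *p* = 3.11e-08), then *Etv4* at 10.6-fold (−3.41 ± 0.21, adjusted *p* = 3.74e-08) and *Fgf4* at 8.81-fold (−3.14 ± 0.13, adjusted *p* = 1.36e-09). All 5 series fell in each of these genes.

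**Figure D2:**
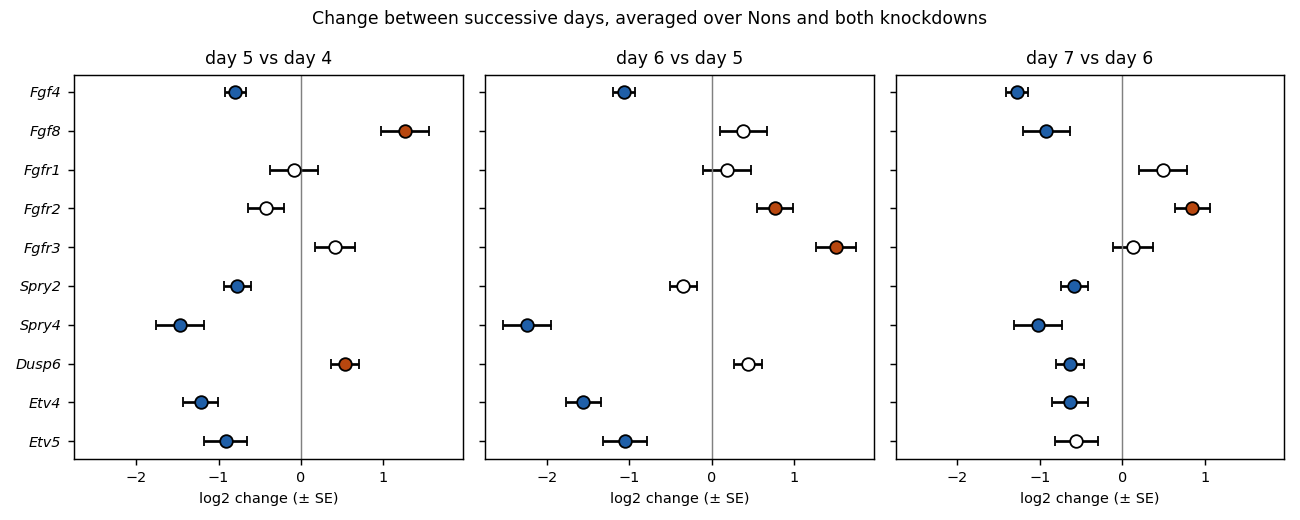
log2 change of each gene between successive days, with its SE, averaged over Nons and both knockdowns. Filled points passed the threshold (blue lower, red higher) and open ones did not. *Fgf4*, *Spry4* and *Etv4* are blue at all 3 steps, and *Dusp6* changes sign at the last.

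The ligands followed opposite courses at first. *Fgf4*, the FGF of the inner cell mass, stood at 328.5 to 379.2 rpm on day 4 in the 5 libraries, at 155.8 to 245.8 rpm on day 5, at 73.5 to 117.5 rpm on day 6 and at 26.5 to 56.6 rpm on day 7. No day overlapped with the next, and the fall passed the threshold at each step. *Fgf8*, a ligand of the primitive streak and later signalling centres, was far lower. In Nons it was 0.692 rpm on day 4, 1.72 rpm on day 5, 1.85 rpm on day 6 and 0.639 rpm on day 7. These Nons values rested on 12 to 34 reads per library, and those of all 20 libraries on 9 to 74. *Fgf8* rose 2.40-fold from day 4 to day 5 (1.26 ± 0.29, adjusted *p* = 0.00475) in all 5 series and fell 1.89-fold from day 6 to day 7 (−0.92 ± 0.29, adjusted *p* = 0.0331), again in all 5. Its difference between day 7 and day 4 was 0.72 ± 0.29 (adjusted *p* = 0.0419). That call held under only 6 of 14 other settings, which gave differences of 0.16 to 0.88 and adjusted *p* up to 0.742. It was lost without Smarcc1.6 (0.57, adjusted *p* = 0.163) or Smarca4.6 (0.59, adjusted *p* = 0.138), and the Nons libraries alone gave −0.11.

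Of the receptors, *Fgfr2* and *Fgfr3* rose after day 5. *Fgfr2*, whose epithelial and mesenchymal splice forms are not separated here, stood at 20.98 to 25.7 rpm on day 4 and at 32.5 to 76.3 rpm on day 7. It rose 1.71-fold from day 5 to day 6 (0.77 ± 0.22, adjusted *p* = 0.0172) and 1.80-fold from day 6 to day 7 (0.85 ± 0.22, adjusted *p* = 0.0144), in 5 of 5 series each time. *Fgfr3* was 1.64 to 1.99 rpm on day 4 and 5.58 to 10.9 rpm on day 7. Most of its rise came between day 5 and day 6, at 2.85-fold (1.51 ± 0.24, adjusted *p* = 0.000555). *Fgfr1*, the main FGF receptor of the epiblast, differed by 0.60 ± 0.30 between day 7 and day 4 (adjusted *p* = 0.0943), which did not pass. On day 5 it was 32.6 rpm in Smarcc1.6 against 63.8 to 92.9 rpm in the other 4 libraries, and without that library the same difference passed (adjusted *p* = 0.0424).

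The feedback inhibitors split. *Spry2* stood at 63.2 to 84.8 rpm on day 4 and at 17.8 to 25.5 rpm on day 7, a fall of 3.25-fold (−1.70 ± 0.16, adjusted *p* = 1.39e-06). *Spry4* went from 83.6 to 158.5 rpm on day 4 to 27.0 to 62.4 rpm on day 5, 3.37 to 15.6 rpm on day 6 and 2.67 to 7.78 rpm on day 7. *Dusp6* was instead higher on day 5 (188.9 to 266.8 rpm) and day 6 (213.5 to 394.2 rpm) than on day 4 (147.7 to 169.3 rpm), in all 5 series at both steps, and was lower on day 7 (137.7 to 261.3 rpm) than on day 6 in all 5. The rise to day 5 was 1.45-fold (0.54 ± 0.17, adjusted *p* = 0.0250), the difference between day 6 and day 5 was 0.44 ± 0.17 (adjusted *p* = 0.0622), and the fall to day 7 was 1.55-fold (−0.63 ± 0.17, adjusted *p* = 0.0180). Its net difference between day 7 and day 4 was 0.35 ± 0.17 (adjusted *p* = 0.0870), which did not pass, although it did under 2 of 15 other settings, quantile normalization (adjusted *p* = 0.0146) and culture series as a replicate block (adjusted *p* = 0.0388).

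The ETS factors fell with the Sproutys. *Etv5* stood at 279.2 to 353.9 rpm on day 4 and at 50.7 to 58.5 rpm on day 7, a fall of 5.73-fold (−2.52 ± 0.26, adjusted *p* = 3.14e-06). Smarcc1.6 reached a low level early, with 97.9 rpm on day 5 where the other 4 libraries held 159.9 to 222.9 rpm. *Etv4* in Nons was 54.6 rpm on day 4, 22.1 rpm on day 5, 7.19 rpm on day 6 and 6.39 rpm on day 7. By single steps, 5 of the 10 genes fell and 2 rose from day 4 to day 5 (19.2% and 19.5% of all genes), 4 fell and 2 rose from day 5 to day 6 (15.3% and 17.0%), and 6 fell and 1 rose from day 6 to day 7 (10.6% and 16.9%). At the last step, where 7 of the 10 passed with all libraries, fewer passed when any 1 hairpin series was left out. Over all genes the share, 27.5% with all libraries, was also lower without Smarcc1.6, Smarca4.4 or Smarca4.6. It was higher without Smarcc1.7.

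To set different genes side by side, levels were divided by the kilobases of all annotated exons of each gene. Genes whose expressed transcripts use only some of these exons read too low by this measure, so the order is approximate. *Fgf4* was the most abundant of the 10 on day 4 by this measure, with a median of 115.1 rpm per kb over the 5 libraries (108.4 to 125.2). *Etv5* followed at 78.4 (68.0 to 86.3), *Dusp6* at 50.2 (47.2 to 54.1) and *Spry2* at 36.0 (30.3 to 40.7) rpm per kb. *Spry4* (24.1) and *Etv4* (23.6 rpm per kb) overlapped with each other and with *Spry2*. *Fgfr1* stood at 7.46, *Fgfr2* at 2.24, *Fgf8* at 0.570 and *Fgfr3* at 0.263 rpm per kb, and each of these was apart from its neighbour in every library. On day 7 *Dusp6* led at 59.3 rpm per kb (44.0 to 83.5), above all the other genes. *Fgf4* (14.3) overlapped with *Etv5* (13.4), *Spry2* (10.9) and *Fgfr1* (10.6 rpm per kb), while *Etv5* lay above *Spry2* and *Fgfr1*, which overlapped with each other. *Fgfr2* (5.69) overlapped with *Etv4* (2.06 rpm per kb). *Spry4* had the lowest median, 0.838 rpm per kb, and overlapped with *Fgf8* (1.01), *Fgfr3* (1.20) and *Etv4*.

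Markers of cell state were followed over the same days. Between day 7 and day 4, 35.7% of all genes tested were higher and 28.8% lower, beside which the counts of markers stand. All 6 general pluripotency markers were lower on day 7 than on day 4, and their summed level went from 2806 to 3267 rpm on day 4 to 941.6 to 1514 rpm on day 7. The 7 formative or primed epiblast markers summed to 1720 to 2375 rpm on day 4 and 330.2 to 575.5 rpm on day 7, with 4 of 7 lower. Of the 9 naive markers tested 5 were lower and 1 higher. Primitive or visceral endoderm markers summed to 5.27 to 9.65 rpm on day 4 and 35.7 to 45.1 rpm on day 7, with 2 of the 3 tested higher. Trophoblast markers summed to 30.0 to 51.5 rpm and 117.1 to 191.1 rpm, with 2 higher and 2 lower of 6. Fibroblast markers summed to 6.83 to 12.1 rpm on day 4 and 26.5 to 119.7 rpm on day 7, with 2 higher and 1 lower of 4. Primitive streak and mesoderm markers summed to 13.6 to 16.9 rpm on day 4, 3.93 to 9.002 rpm on day 5 and 6.02 to 15.5 rpm on day 7. The single one tested, *Eomes*, fell from day 4 to day 5 (−1.24 ± 0.27, adjusted *p* = 0.00364) and did not pass between day 7 and day 4. The sum of the neural markers lay between 57.9 and 182.1 rpm over the 4 days, with 1 higher and 1 lower of 4 between day 7 and day 4. The part of these cell states in the changes of the 10 genes was not tested.

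The second comparison asked whether loss of a BAF subunit altered the pathway's genes. Each difference sets the 8 libraries of a knockdown against the same 4 Nons libraries, 1 per day, so the spread between control cultures was not measured. In the *Smarcc1* knockdown *Etv4* rose and none of the other 9 genes passed the threshold. Its level in Smarcc1.6 was 107.6 rpm on day 4, 33.1 rpm on day 5, 18.1 rpm on day 6 and 11.6 rpm on day 7. In Smarcc1.7 it was 89.7, 37.5, 16.9 and 7.23 rpm on the same days. All 8 libraries were above Nons of their day, by 1.13 to 2.52 times. The fitted difference was 1.78-fold (0.83 ± 0.20, adjusted *p* = 0.0160). Thus 1 of 10 was higher and 0 of 10 lower, where 7.54% of all genes were higher and 3.08% lower. By unadjusted *p* under 0.05, 4 of the 10 passed. How many of all genes passed at an unadjusted *p* was not counted, here or in the tests below. Counts at that level therefore have no share of all genes to stand beside. Without Smarcc1.6 the *Etv4* difference was 0.72 and did not pass (adjusted *p* = 0.0804), nor did it pass with culture series as a replicate block (adjusted *p* = 0.119). The median difference of the 10 genes was 0.0066, against 0.064 over all genes.

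**Figure D3:**
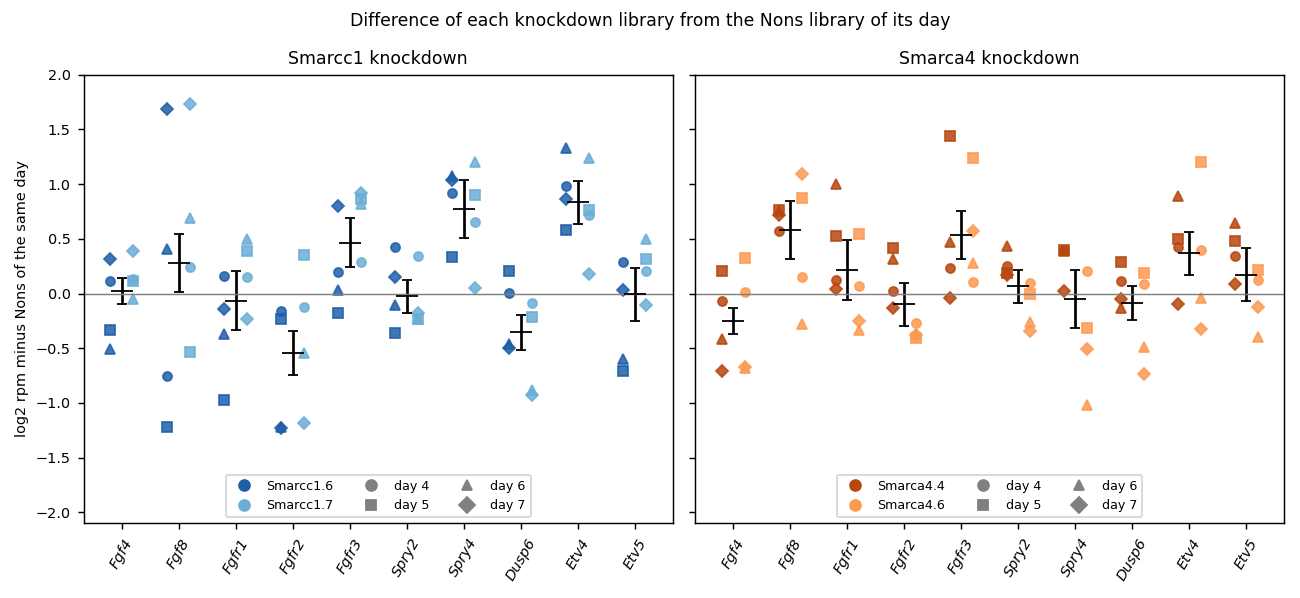
log2 rpm of each knockdown library minus that of Nons on the same day, for the *Smarcc1* (left) and *Smarca4* (right) knockdowns; colours are hairpins, marker shapes are days, and black bars are the fitted difference with its SE. All 8 *Smarcc1* knockdown points lie above 0 for *Etv4* and for *Spry4*, while for most other genes points fall on both sides.

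*Spry4* showed the same side in every *Smarcc1* knockdown library without passing. It was 158.5, 42.2, 14.3 and 7.78 rpm on days 4 to 7 in Smarcc1.6 and 131.6, 62.4, 15.6 and 3.93 rpm in Smarcc1.7, against 83.6, 33.5, 6.81 and 3.78 rpm in Nons. The ratios ran from 1.04 to 2.29, and the fitted difference was 0.77 ± 0.27 (adjusted *p* = 0.0929). Over the 20 libraries, Pearson's r of the log2 levels of *Etv4* and *Spry4* was 0.978, and 0.754 after the mean of each day was subtracted. Both values describe libraries that share days and cultures.

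*Fgfr2* and *Dusp6* lay on the lower side. *Fgfr2* was 22.6, 14.8, 16.0 and 32.5 rpm on days 4 to 7 in Smarcc1.6 and 23.1, 22.2, 25.5 and 33.5 rpm in Smarcc1.7, where Nons held 25.2, 17.4, 37.2 and 76.3 rpm. It was below Nons in 7 of 8 libraries, and the gap was widest on day 7, when both hairpins stood below every library of Nons and of the *Smarca4* knockdown of that day. The fitted difference was −0.54 ± 0.20 (adjusted *p* = 0.115), and it passed when libraries were centred on their median gene (−0.60, adjusted *p* = 0.0346) or quantile normalized (−0.61, adjusted *p* = 0.0413). *Dusp6* was below Nons in 6 of 8 libraries, with a difference of −0.36 ± 0.16 (adjusted *p* = 0.193). *Fgfr3* was above Nons in 7 of 8, with 0.46 ± 0.22 (adjusted *p* = 0.235).

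The remaining genes of the *Smarcc1* knockdown lay close to Nons. The differences were 0.022 ± 0.12 for *Fgf4*, −0.025 ± 0.15 for *Spry2*, −0.064 ± 0.27 for *Fgfr1* and −0.0089 ± 0.24 for *Etv5*. For *Fgfr1* and *Etv5* the hairpins parted, and without Smarcc1.6 on day 5 the values were 0.11 and 0.12. *Fgf8* gave 0.28 ± 0.26, but the days disagreed. On day 7 both hairpins were above Nons, at 2.06 and 2.12 against 0.639 rpm, and on day 5 both were below it, at 0.739 and 1.19 against 1.72 rpm. The test of whether the *Smarcc1* effect differed among days called 0 of the 10 genes, with limma, and 0.256% of all genes; *Fgf8* alone had an unadjusted *p* under 0.05, and limma-voom called 0 as well.

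In the *Smarca4* knockdown 0 of 10 genes passed with limma, where 4.75% of all genes were higher and 1.96% lower. By unadjusted *p* under 0.05 there were 2, *Fgf8* and *Fgfr3*, with no count over all genes at that level. At the threshold, limma-voom on the recovered reads called 0 of the 10, and 6.76% of all genes. *Fgf8* was above Nons in 7 of 8 libraries, by 0.58 ± 0.26 (adjusted *p* = 0.250), and *Fgfr3* in 7 of 8, by 0.53 ± 0.22 (adjusted *p* = 0.198). *Fgfr3* was furthest from Nons on day 5, with 4.39 rpm in Smarca4.4 and 3.82 rpm in Smarca4.6 against 1.62 rpm, and day 5 of Smarca4.4 is the library with the fewest reads. *Etv4* was 73.3, 31.2, 13.3 and 5.99 rpm on days 4 to 7 in Smarca4.4 and 72.0, 50.8, 6.99 and 5.10 rpm in Smarca4.6. It was above Nons in 5 of 8 libraries, by 0.37 ± 0.20 (adjusted *p* = 0.338). *Fgf4* was below Nons in 5 of 8, by −0.25 ± 0.12 (adjusted *p* = 0.284), and on day 7 both hairpins held 26.5 and 27.3 rpm against 43.3 rpm. *Spry4* went both ways, above Nons in 5 libraries and below in 3, with −0.052 ± 0.27. The test among days called 0 of the 10 here as well, with limma and with limma-voom, with 0 at an unadjusted *p* under 0.05, and 0.00752% of all genes.

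Compared with each other, the knockdowns differed in 0 of the 10 genes at the threshold with limma. Of all genes, 2.55% were higher in the *Smarcc1* knockdown and 1.54% lower. By unadjusted *p* under 0.05 there were 4 (*Fgf4*, *Fgfr2*, *Spry4* and *Etv4*), with no count over all genes at that level. At the threshold, limma-voom called 1 of the 10, and 4.51% of all genes. *Spry4* came closest, at 1.77-fold higher in the *Smarcc1* knockdown (0.82 ± 0.22, adjusted *p* = 0.0553). It passed under 6 of 13 other settings, limma-voom on the recovered reads among them (adjusted *p* = 0.0380). *Etv4* differed by 0.46 ± 0.16 (adjusted *p* = 0.151), so its rise in one knockdown and not the other is not shown to be a difference between them.

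Naive pluripotency markers moved in both knockdowns. Of the 9 tested, 7 were higher in the *Smarcc1* knockdown and 5 in the *Smarca4* knockdown. Of all genes, 7.54% and 4.75% were higher in these knockdowns and 3.08% and 1.96% lower. *Nanog*, *Zfp42*, *Esrrb*, *Klf2* and *Dppa3* were higher in both, and *Klf4* and *Tbx3* passed in the *Smarcc1* knockdown. *Tfcp2l1* passed in neither. *Klf5* lay on the lower side in both without passing (−0.50 ± 0.27 and −0.43 ± 0.27). The summed level of the naive markers was 176.8 to 272.7 rpm in Nons. It was 303.0 to 703.0 rpm in the *Smarcc1* knockdown and 283.5 to 508.0 rpm in the *Smarca4* knockdown. No knockdown library overlapped with Nons. *Prdm14* had no reads in 2 Nons libraries. Of the 6 general pluripotency markers 2 and 1 were higher, *Dppa4* in both, and of the 7 formative markers *Otx2* and *Fgf5* were lower in both and *Dnmt3a* higher in the *Smarcc1* knockdown. Of the 3 endoderm markers tested 2 and 1 were higher, *Gata4* in both. Of the 6 trophoblast markers 2 were higher in each knockdown, *Tfap2c* in both, and 1 was lower in the *Smarcc1* knockdown. Of the 4 neural markers *Sox1* was higher in both. Of the 4 fibroblast markers *Dcn* was lower in both and *Col1a1* higher in the *Smarcc1* knockdown. The single mesoderm marker tested did not pass in either. The part of these shifts in the *Etv4* result was not tested.

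**Figure D4:**
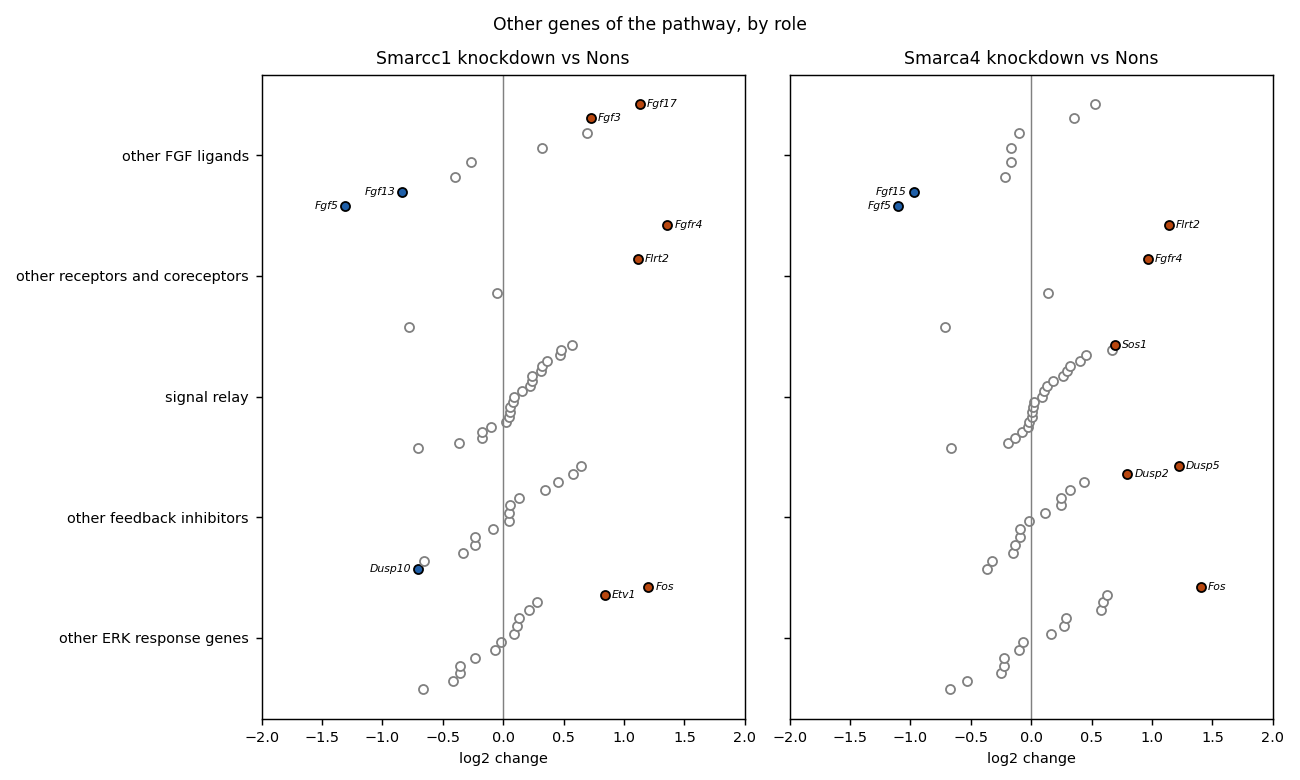
log2 difference from Nons of the other pathway genes tested, grouped by role, in the *Smarcc1* (left) and *Smarca4* (right) knockdowns. Each point is a gene, filled and named where it passed the threshold; the signal relay holds 0 named genes on the left and *Sos1* on the right.

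The other genes of the pathway were counted by role. Of all genes, 7.54% were higher and 3.08% lower in the *Smarcc1* knockdown, and 4.75% and 1.96% in the *Smarca4* knockdown. These calls, like those of the markers, came from the main fit, which treats the libraries of a culture series as independent. With culture series as a replicate block, the calls over all genes fell from 1412 to 605 and from 892 to 258. Results under the block are not given here for single genes of these lists. Of 20 further FGF family genes, some of them intracellular homologues and not secreted ligands, 8 were expressed enough to test. In the *Smarcc1* knockdown *Fgf17* (1.13 ± 0.17, adjusted *p* = 0.000987) and *Fgf3* (0.72 ± 0.17, adjusted *p* = 0.0152) were higher, and *Fgf5*, the ligand that marks the formative epiblast, was lower (−1.31 ± 0.25, adjusted *p* = 0.00450). *Fgf13*, an intracellular FGF homologue named after its values were seen, was also lower (−0.84 ± 0.21, adjusted *p* = 0.0199). In the *Smarca4* knockdown *Fgf5* (−1.10 ± 0.25, adjusted *p* = 0.0193) and *Fgf15* (−0.97 ± 0.26, adjusted *p* = 0.0399) were lower. *Fgf3* and *Fgf17* were higher in the *Smarcc1* than in the *Smarca4* knockdown (0.82 ± 0.14, adjusted *p* = 0.00612, and 0.60 ± 0.14, adjusted *p* = 0.0291).

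Among 4 other receptors and coreceptors tested, 2 rose in each knockdown, where 7.54% and 4.75% of all genes did. *Fgfr4*, a receptor whose best known ligands include the endocrine FGFs, was 2.56-fold higher in the *Smarcc1* knockdown (1.36 ± 0.26, adjusted *p* = 0.00519) and 1.95-fold higher in the *Smarca4* knockdown (0.96 ± 0.26, adjusted *p* = 0.0482). *Flrt2*, a membrane protein that binds FGF receptors, was 2.16-fold and 2.20-fold higher (adjusted *p* = 0.0152 and 0.0203). Both knockdowns were set against the same Nons libraries.

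Of 21 signal relay genes tested, from the adaptors to the ERK and RSK kinases, 0 changed in the *Smarcc1* knockdown and *Sos1*, a RAS activator, rose in the *Smarca4* knockdown (0.69 ± 0.19, adjusted *p* = 0.0451). Of 14 other feedback inhibitors, *Dusp10*, a phosphatase of the stress kinases, was lower in the *Smarcc1* knockdown (−0.70 ± 0.20, adjusted *p* = 0.0448). *Dusp5* and *Dusp2*, nuclear phosphatases of ERK, were higher in the *Smarca4* knockdown (1.22 ± 0.21, adjusted *p* = 0.00378, and 0.79 ± 0.21, adjusted *p* = 0.0392). Of 14 other ERK response genes, *Fos*, an immediate early gene, rose in both (1.20 ± 0.32, adjusted *p* = 0.0320, and 1.40 ± 0.32, adjusted *p* = 0.0210), and *Etv1*, the third member of the ETV4 family, rose in the *Smarcc1* knockdown (0.84 ± 0.19, adjusted *p* = 0.0130). Over these 5 lists and both knockdowns the median difference ran from −0.17 to 0.55, against 0.064 over all genes.

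From day 4 to day 7, when 35.7% of all genes were higher and 28.8% lower, 8 of the 14 other feedback inhibitors rose and 2 fell. That list is not limited to phosphatases of ERK, since it holds *Dusp10*, a phosphatase of the stress kinases. *Dusp10* (3.27 ± 0.22) and *Dusp5* (2.46 ± 0.22), a phosphatase of ERK, rose, and both passed the threshold. Of the 14 ERK response genes 6 rose and 6 fell, *Fos* rising by 2.52 ± 0.35 and *Etv1* falling by 2.75 ± 0.21 on the log2 scale, beside *Etv4* and *Etv5*. Of the 8 further FGF family genes 4 rose and 3 fell. The intracellular homologues *Fgf11* (1.91 ± 0.32) and *Fgf13* (1.26 ± 0.22) were among those that rose. Of the 4 receptors and coreceptors 2 rose and 0 fell, and of the 21 relay genes 7 rose and 2 fell.

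The genes whose log2 levels were most like each member over the 20 libraries were taken from the 13296 tested. For *Spry4* they were *Mettl16* (r = 0.990), *Tex9* and *Diexf* (both 0.984), for *Etv5* *Hnrnpa2b1* (0.987), *Vps33b* (0.980) and *Hnrnpd* (0.976), and for *Etv4* *Rpp25* (0.979), *Spry4* (0.978) and *Enox1* (0.976). For *Fgf4* they were *Foxd3* (0.977), *Enpp3* and *Vrtn* (both 0.969), and for *Spry2* *Chga* (0.964), *Enpp3* (0.957) and *Myc* (0.950). *Fgfr3* was closest to *Tmem63a* (0.966), *Fgfr1* to *Mgat3* (0.939), *Fgfr2* to *Net1* (0.937), *Dusp6* to *Nt5c* (0.879) and *Fgf8* to *Tcea2* (0.868). These correlations describe the shared course over days. After the mean of each day was subtracted, *Fgfr1* was closest to *Carm1* (0.966), *Etv5* to *Wwc1* (0.958), *Fgfr2* to *Lins* (0.954), *Dusp6* to *Myl12a* (0.927), *Fgfr3* to *Ntn5* (0.922), *Spry4* to *Dusp27* (0.899), *Etv4* to *Zfp428* (0.897), *Fgf4* to *Pdxp* (0.893), *Fgf8* to *Ogfrl1* (0.889) and *Spry2* to *Fam43a* (0.880). *Fgfr1* and *Etv5* themselves then gave r = 0.954, the highest of the 45 pairs of members, with Smarcc1.6 on day 5 the lowest library of its day in both.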

How the data were processed

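RNA-seq libraries of differentiating male mESCs were used: 4 Nons, 8 *Smarcc1* knockdown and 8 *Smarca4* knockdown libraries. Groups came from the sample titles, since a genotype label calls the *Smarca4* libraries a Smarcc knockdown. The 4 libraries of the second Nons series that the labels list were not analysed here. The authors trimmed reads with trim_galore, aligned them with tophat or HISAT2 to mm10 and deposited log2 rpm values from SeqMonk's RNA-seq quantitation pipeline. Annotation release and strand are not given in the sources used here, so overlapping or antisense genes may share reads. A gene without reads holds 0.9 of a read on this scale, from which whole reads were recovered (100% of values below 1000 reads, within 0.02).

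limma 3.58.1 in R 4.3.3 (lmFit, eBayes with trend) was run on the 13296 genes averaging 0 log2 rpm or more, with a mean for each of 12 combinations of knockdown and day, 8 residual degrees of freedom and Benjamini-Hochberg adjustment over all genes at 0.05. Differences are on the log2 rpm scale, ± SE. The residual spread comes from hairpin pairs, and every contrast with Nons rests on 1 Nons series. Exon lengths and hairpin sites used GENCODE M21. The 10 members, the named genes (all members, and of each other pathway list those past the threshold in either knockdown, or where more than 4 passed the 2 largest rises and falls; the 3 genes most correlated with each member, of which the text gives some) and all lists were chosen with earlier results of these data known. The fit was tested on simulated data. Each simulated library varied independently, so this test could not show the effect of correlation within a culture series.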

Additional observations from a re-analysis of the deposited data

How the results depend on the processing

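Other filters, a pseudocount of 1, centring, quantile normalization, limma-voom on recovered reads, a replicate block, two-group fits and fits without 1 hairpin series or the smallest library were run, and a fit without Smarcc1.6 on day 5 was added after the data were seen. The *Smarca4* knockdown called 0 of the 10 genes, and the tests among days 0, under each of them. In the *Smarcc1* knockdown the count of 1 became 2 with centring and with quantile normalization, and 0 to 1 without 1 hairpin series. With each culture series treated as a replicate block it became 0 (*Etv4*, adjusted *p* = 0.119). The difference between the hairpins of a knockdown correlated between days at −0.206 to 0.823. In the *Smarcc1* knockdown it correlated at 0.4435 to 0.823 among days 5, 6 and 7, and at 0.0233 to 0.0604 between day 4 and these. In the *Smarca4* knockdown the values ran from −0.206 to 0.367. Libraries of 1 *Smarcc1* series therefore cannot be taken as independent, while the main fit, which has no block, treats them so. The same block moved the all-gene count from 1412 to 605 in the *Smarcc1* knockdown, from 892 to 258 in the *Smarca4* knockdown and from 544 to 105 between them, and the filter of 10 rpm gave 579, 324 and 241. Over all genes the *Smarcc1* count was 843 without Smarcc1.7, the *Smarca4* count 420 and 277 without Smarca4.4 and Smarca4.6, and the count between them 49 to 263 without 1 series and 1067 without the smallest library. From day 4 to day 5 the all-gene count of 5147 became 3420 with the 10 rpm filter, 3179 without Smarca4.6 and 2131 and 2766 in the two-group fits, from day 5 to day 6 that of 4288 became 1926 and 2308 there, and from day 6 to day 7 that of 3656 became 540 and 1734 there and 1061 to 4031 without 1 series. The tests among days called 34 and 1 of all genes, and 0 to 88 and 0 to 38 elsewhere. Between the knockdowns the count of 0 became 1 (*Spry4*) with no filter, 1 added, centring, quantile normalization, limma-voom and without the smallest library. The count of 7 from day 4 to day 5 became 4 and 4 in the two-group fits. That of 7 from day 6 to day 7 became 1 and 1 there, and 3 to 4 without 1 hairpin series. Centring moved the median gene between day 7 and day 4 from 0.083 to −0.093. Between groups, differences that did not pass turned sign as follows. In the *Smarcc1* knockdown, leaving out a hairpin series gave −0.10 to 0.15 for *Fgf4*, −0.33 to 0.20 for *Fgfr1*, −0.076 to 0.027 for *Spry2* and −0.25 to 0.23 for *Etv5*. *Fgf4* was −0.036 with centring and −0.021 with quantile normalization, *Fgf8* was −0.11 with quantile normalization, and *Fgfr1* and *Etv5* were 0.11 and 0.12 without Smarcc1.6 on day 5. In the *Smarca4* knockdown the series left out gave −0.36 to 0.16 for *Fgfr2*, −0.41 to 0.30 for *Spry4*, −0.24 to 0.055 for *Dusp6*, −0.13 to 0.26 for *Spry2* and −0.045 to 0.39 for *Etv5*, and *Spry2* was −0.0089 with centring and −0.0081 with quantile normalization. Between the knockdowns they gave −0.32 to 0.18 for *Fgfr3*, −0.28 to 0.10 for *Spry2* and −0.42 to 0.057 for *Etv5*, and *Fgfr3* was 0.060 without Smarcc1.6 on day 5. Between day 7 and day 4 *Fgf8*, which had passed, was −0.11 in Nons alone and passed under 6 of 14 settings, and *Dusp6*, which had not, passed under 2 of 15, the replicate block included. The cause was not tested for any of these. Of the other pathway genes, 0 to 5 per list passed in each knockdown. *Fgf8* and *Fgfr3*, with the fewest reads, have the widest counting error.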
